A study of Mus musculus with 4 samples.

Results

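The nuclear oxidative phosphorylation genes are the chromosomal genes for subunits of complexes I, III, IV and V of the mitochondrial inner membrane. They were chosen by symbol: Nduf subunits of the a, b, c, s and v series, Cox5 to Cox8 subunits, Uqcr genes and Atp5 genes, which gave 80 of the 32285 genes in the files. By symbol, 39 belonged to complex I, 8 to complex III, 16 to complex IV and 17 to complex V. The 39 include Ndufb1-ps, annotated as a long noncoding RNA at a bidirectional promoter, and Ndufa4 and Ndufa4l2, counted here by name. The set was proposed because its UMIs (unique molecular identifiers, each standing for 1 captured mRNA molecule) were lower in mesenchymal cells of arthritic mice in these same libraries, so it was selected on that difference, and the mesenchymal values below are a description and not a test.

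The study took cells from tibial fracture callus of C57BL/6J wild-type mice aged 3 months, scraped from the periosteal surface and digested with enzymes. Mice given K/BxN serum, which transfers autoantibodies and produces an inflammatory arthritis (RA mice), were compared with mice given vehicle (control mice), at 4 and 7 days post fracture (dpf). Single cell RNA-seq gave 4 libraries, control_4d, RA_4d, control_7d and RA_7d, each from pooled calluses, so each condition had 1 library. Serum transfer models the effector phase of arthritis and not the loss of tolerance that precedes it, and a pool hides the spread between animals.

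No difference between conditions could therefore be tested, and library and condition cannot be told apart. Kept cells numbered 4110 to 8223 per library (25479 of 34038 barcodes), with medians of 16093 to 17631 UMIs and 2.05% to 2.50% of UMIs from mitochondrial genes. Any pair of libraries shared 5 to 15 kept barcodes, and 594 kept cells (2.33%) scored as doublets. Clusters were built without the 80 genes and without ribosomal or mitochondrial genes, and were named only from marker lists. They gave mesenchymal (8693 cells), myeloid (10124), endothelial (3362), muscle (944), mural (833), lymphoid (681) and Schwann (300) lineages, and 542 cells in 2 unnamed clusters. Leading genes over all libraries were Col2a1 and Ibsp in osteochondral progenitor-like cells, Pi16 and Cd248 in fibroblast precursor-like cells, Acp5 and Ctsk in osteoclast-like cells, and Pax7 and Myog in the muscle cluster, which mixed stem and differentiating cells. The osteochondral name rests on the 7 dpf libraries: its summed osteochondral markers were at 464 CPM in control_4d, 648 in RA_4d, 8574 in control_7d and 5365 in RA_7d, and its committed mesenchymal progenitor markers at 8821, 6581, 8595 and 8846 CPM. At a finer clustering only 30, 14, 345 and 233 cells in that order carried the osteochondral name, so most cells under it here, above all at 4 dpf, are not marked as osteochondral. The osteoclast name is uneven too. Its summed osteoclast markers were at 3999 CPM in control_4d, 4733 in RA_4d, 9192 in control_7d and 2499 in RA_7d. Macrophage markers in that cluster were at 3958, 2157, 2607 and 3930 CPM. Of its 337, 311, 191 and 37 cells, many lost the name at the finer clustering, where 120, 141, 103 and 12 cells carried it.

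Oxidative phosphorylation passes electrons from NADH through complex I and from succinate through complex II to ubiquinone, then through complex III and cytochrome c to complex IV, which reduces oxygen. The protons pumped on the way drive complex V, the ATP synthase. Most subunits are encoded in the nucleus and imported, while a few core subunits of complexes I, III, IV and V are encoded in mitochondrial DNA, and chondrocytes in a callus are known to rely largely on glycolysis whereas osteoclasts are rich in mitochondria.

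Promoters of 3 members show the kinds of site that regulators of respiratory genes are known to bind, namely NRF1, the ETS factor GABPA and the orphan receptor ESRRA. The sequences are RefSeq promoter entries on GRCm38, minus strand, written in the direction of transcription, with the motif in capitals. Each gene encodes a subunit of complex V.
Atp5l, NRF1, chr9:44920925-44920992: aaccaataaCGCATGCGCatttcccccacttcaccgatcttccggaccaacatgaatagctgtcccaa
Atp5e, GABPA, chr2:174464147-174464253: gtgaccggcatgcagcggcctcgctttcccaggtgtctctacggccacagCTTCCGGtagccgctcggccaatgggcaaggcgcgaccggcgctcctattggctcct
Atp5g3, ESRRA, chr2:73911327-73911428: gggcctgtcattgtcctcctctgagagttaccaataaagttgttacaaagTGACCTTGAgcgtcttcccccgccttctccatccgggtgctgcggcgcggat
In all 3 the motif lies on the opposite strand to the gene, so the capitals are its reverse complement.

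Promoter entries were found for 67 of the 80 genes, each from 250 bases before to 50 bases after the start of the transcript, and both strands were searched. The NRF1 motif GCGCANGCG was in 18 of 67 (26.9%), against 7.03% of the 27025 genes with an entry. The ETS motif CCGGAAG was in 15 (22.4%) against 9.93%, the YY1 motif AAGATGGCG in 7 (10.4%) against 1.64%, and the ESRRA motif TCAAGGTCA in 1 (1.49%) against 0.466%. At least 1 of these 4 motifs was present in 33 of the 67 promoters (49.3%), compared with 16.9% of all genes with an entry.

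All 80 genes were detected in the kept cells, where they made up 1.66% of UMIs. The most abundant by UMIs were Atp5e (720 CPM, UMIs scaled to 1000000 per group of cells) and Cox6c (677 CPM). Atp5e encodes the epsilon subunit of the F1 part of the ATP synthase, and Cox6c a small subunit of complex IV. Uqcrh, the hinge protein of complex III, was at 507 CPM, and Ndufa4, named for complex I but known to act in complex IV, was at 372 CPM. Tags were counted at the 3′ ends of transcripts, 1 per molecule, so these levels carry no length term. At the other end, Cox7b2 and Cox8c, isoforms known from testis, had 17 and 2 UMIs in all kept cells.

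The 4 complexes kept similar proportions across cell types. Over 80 combinations of cluster and library with at least 20 cells, complex I took 29.6% to 36.6% of the members' UMIs, complex III 9.35% to 12.4%, complex IV 21.3% to 25.3% and complex V 29.0% to 35.9%. The total level varied far more than these shares. Between the cluster with the highest summed level and that with the lowest, the ratio was 2.69 (control_4d), 2.84 (RA_4d), 2.77 (control_7d) and 1.94 (RA_7d).

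In control_7d, osteoclast-like cells led with 37569 CPM for the 80 genes together. The muscle cluster came next at 26889 CPM, followed by the Myh11-expressing pericyte and smooth muscle-like cluster at 23359 CPM. Fibroblast-like cells, with 13554 CPM, were lowest, and osteochondral progenitor-like cells (17933 CPM) stood in the middle of the order, beside monocyte-like (18396 CPM) and dendritic cell-like (17902 CPM) cells. Fibroblast-like cells were also lowest in each of the other 3 libraries. Osteoclast-like cells were highest in control_4d and RA_4d, but in RA_7d their interval (21865 to 22536 CPM) overlapped with that of the Myh11-expressing cluster (21858 to 22211 CPM). Of the 19 neighbouring pairs in each library's order, 5 in control_4d, 9 in RA_4d, 7 in control_7d and 7 in RA_7d had overlapping counting intervals and are not ordered by these data. Here and below, intervals are exact 95% intervals on UMI counts, cover counting error only and say nothing of variation between mice.

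**Figure D1:**
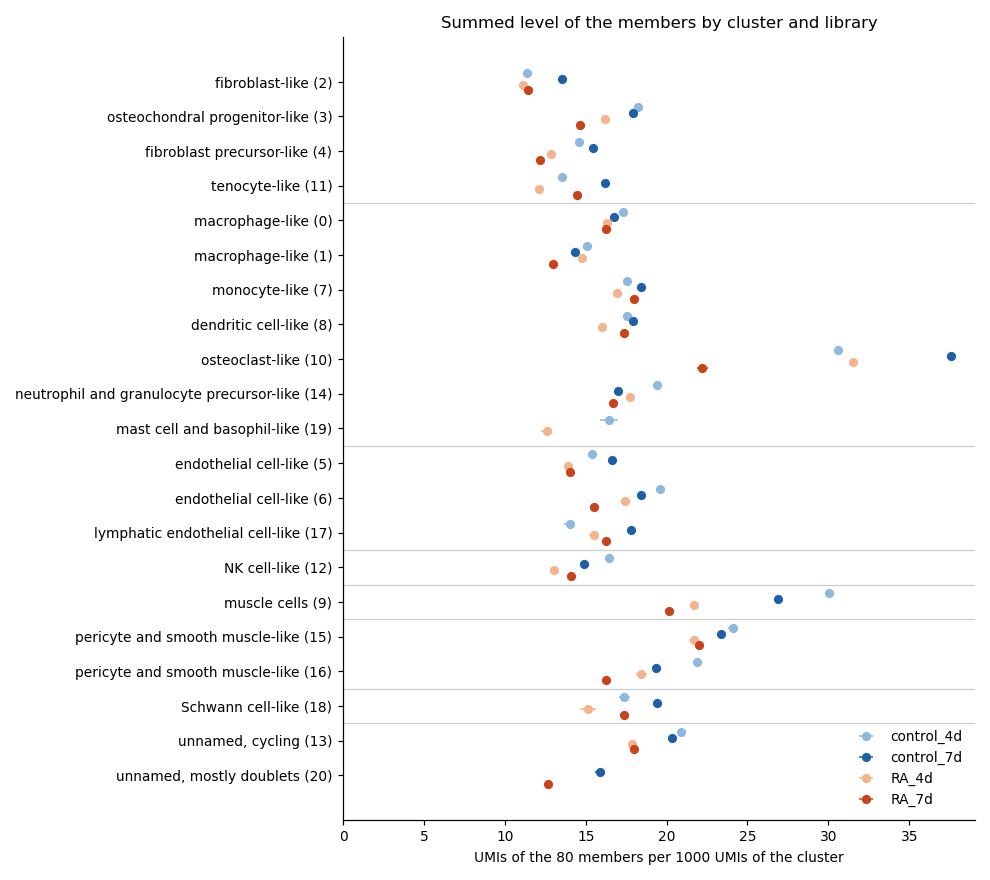
Summed UMIs of the 80 nuclear oxidative phosphorylation genes per 1000 UMIs of the cluster (horizontal axis, 1 unit is 1000 CPM) in each cluster, with 1 point per library of at least 20 cells and bars for the exact 95% counting interval. Osteoclast-like cells lie at 37569 CPM in control_7d and 22199 CPM in RA_7d, while fibroblast-like cells lie between 11093 and 13554 CPM in all 4 libraries.

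In mesenchymal cells at 7 dpf, the RA library had less of the 80 genes together than the control library. Their summed level was 14645 CPM in control_4d, 13488 CPM in RA_4d, 16166 CPM in control_7d (counting interval 16137 to 16195) and 12861 CPM in RA_7d (12839 to 12883). The control_7d library was thus the highest and RA_7d the lowest, with a log2 ratio of RA to control of −0.33 at 7 dpf and −0.12 at 4 dpf. Per cell, the median share of UMIs from these genes was 1.55% in control_7d and 1.22% in RA_7d, while the median UMIs per mesenchymal cell were close, at 24138 and 24373.

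Of 78 members with at least 50 UMIs in both libraries together, 75 had a lower level in RA_7d than in control_7d. At least 1.2-fold lower were 54 of the 78, against 18.0% of all 17183 genes with that many UMIs, and 2 were at least 1.2-fold higher. Because the members were proposed from this contrast, nothing is read from these counts, and no share of all genes with a negative ratio was counted. The median of the members' log2 ratios, computed with 1 CPM added, was −0.33, with quartiles of −0.40 and −0.25, and the median over all genes was −0.03. Ndufb5, an accessory subunit of complex I, stood just inside the 1.2-fold limit at −0.27, and Ndufs7, a core subunit that carries an iron-sulfur cluster, just outside at −0.26.

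**Figure D2:**
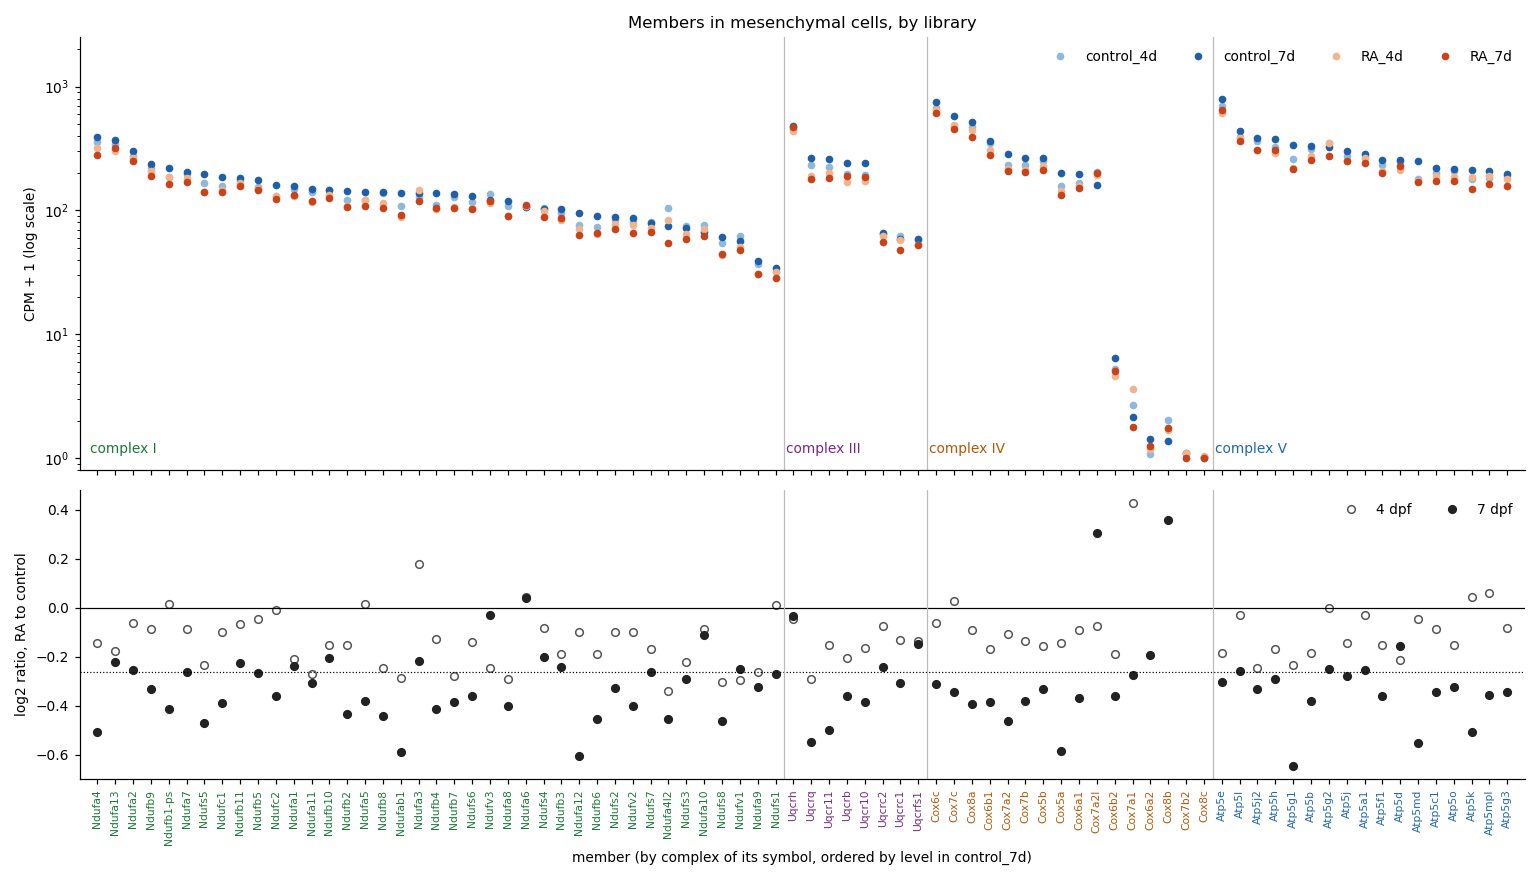
Each member in mesenchymal cells, ordered by complex and by its level in control_7d. The upper panel shows CPM + 1 on a log scale with 1 point per library, and the lower panel the log2 ratio of RA to control at 4 dpf (open circles) and 7 dpf (filled circles) for members with at least 50 UMIs, with a dotted line at 1.2-fold lower. At 7 dpf most points lie around −0.33 in each complex, with Atp5g1 lowest at −0.65 and Ndufa6, Cox7a2l and Cox8b above 0.

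The 4 complexes were lower by about the same amount. The log2 ratio of the summed level at 7 dpf was −0.33 for complex I, −0.30 for complex III, −0.34 for complex IV and −0.34 for complex V. Members at least 1.2-fold lower numbered 25 of 39, 5 of 8, 11 of 14 and 13 of 17 in that order, against 18.0% of all genes. Within complex I, the 7 nuclear core subunits, which carry the redox centres and the path of electrons, had a median of −0.29 and lay between −0.46 (Ndufs8) and −0.25 (Ndufv1). The other 32 complex I members had a median of −0.35 and a wider range, −0.60 to 0.04.

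Ndufa12, an accessory subunit of complex I, was at 75.1 CPM in control_4d, 70.0 in RA_4d, 94.6 in control_7d and 61.9 in RA_7d, a log2 ratio of −0.60 at 7 dpf. Ndufab1, the mitochondrial acyl carrier protein, which also serves fatty acid synthesis, was at 107, 87.7, 137 and 91.0 CPM in the same order (−0.59 at 7 dpf). In both genes control_7d stood above the other 3 libraries. Ndufa6, another accessory subunit, lay within 105 to 109 CPM in all 4 libraries. Ndufa4 was at 394 CPM in control_7d and 277 CPM in RA_7d (−0.51).

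Among complex III members, the small subunit Uqcrq was at 232 CPM in control_4d, 190 in RA_4d, 263 in control_7d and 180 in RA_7d (−0.55 at 7 dpf), so both RA libraries lay below both control libraries. Uqcr11, another small subunit, was at 257 CPM in control_7d and 181 CPM in RA_7d (−0.50). Uqcrh was at 480 and 469 CPM (−0.03). The most abundant member of complex III was therefore the one with the smallest difference.

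In complex IV, Cox5a was at 157 CPM in control_4d, 142 in RA_4d, 199 in control_7d and 133 in RA_7d (−0.58 at 7 dpf). Cox7a2, the isoform found in most tissues, was at 286 CPM in control_7d and 208 CPM in RA_7d (−0.46), and Cox6c at 755 and 608 CPM (−0.31). Cox7a2l, whose product takes part in joining complexes III and IV and is known to be shortened in C57BL/6J mice, had the opposite order. It was at 202 CPM in control_4d, 192 in RA_4d, 161 in control_7d and 199 in RA_7d, a log2 ratio of 0.31, and here control_7d was the library that stood apart, below the other 3. The other member at least 1.2-fold higher was Cox8b, a muscle isoform, at only 28 UMIs in control_7d and 76 in RA_7d.

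In complex V, Atp5g1 had the lowest ratio of all 78 members. It is 1 of 3 genes that encode the same subunit of the rotating c-ring, and was at 260 CPM in control_4d, 221 in RA_4d, 338 in control_7d and 216 in RA_7d (−0.65 at 7 dpf). The other c-ring genes, Atp5g2 (324 and 273 CPM at 7 dpf, −0.25) and Atp5g3 (197 and 155 CPM, −0.34), differed less. Atp5md, a small subunit linked to synthase dimers, was at 248 and 169 CPM (−0.55) and Atp5e at 796 and 646 CPM (−0.30). The 5 subunits of the F1 part lay between −0.38 (Atp5b) and −0.15 (Atp5d), with a median of −0.30.

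At 4 dpf, 67 of 76 mesenchymal members had a negative log2 ratio of RA to control, with a median of −0.14. No share of all genes with a negative ratio was counted, so nothing is read from this number. At least 1.2-fold lower were 9 of 76, close to the 11.4% among all genes. From 4 to 7 dpf the summed level was higher by 0.14 on the log2 scale in the control libraries and lower by 0.07 in the RA libraries (a log2 ratio of −0.07). Over the whole lineage, the wider gap at 7 dpf thus came with a higher control level and a slightly lower RA level. Its clusters did not all follow this. Control was lower at 7 dpf in osteochondral progenitor-like cells (18225 and 17933 CPM) and higher in the others. RA was higher at 7 dpf in tenocyte-like (12128 and 14464 CPM) and fibroblast-like (11093 and 11459 CPM) cells and lower in the others.

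The 4 mesenchymal clusters had the same direction at both times. At 7 dpf, fibroblast precursor-like cells went from 15438 CPM in control to 12174 in RA (−0.34), osteochondral progenitor-like cells from 17933 to 14633 (−0.29), fibroblast-like cells from 13554 to 11459 (−0.24) and tenocyte-like cells from 16177 to 14464 (−0.16). At 4 dpf these log2 ratios were −0.18, −0.17, −0.04 and −0.16. Markers of cell identity differed with them at 7 dpf. In the fibroblast precursor-like cluster, fibroblast precursor markers were at 1144 CPM in control_7d and 2556 in RA_7d and committed mesenchymal progenitor markers at 9271 and 7001 CPM, and in the osteochondral progenitor-like cluster osteochondral markers were at 8574 and 5365 CPM. At 4 dpf each of these had the reverse order. Precursor markers were at 3053 CPM in control_4d and 1100 in RA_4d, committed markers at 4779 and 5364, and osteochondral markers at 464 and 648. Other markers were higher in RA at both times. Fibroblast markers in the fibroblast-like cluster were at 3131 CPM in control_4d, 3728 in RA_4d, 1904.5 in control_7d and 3006 in RA_7d. Tenocyte markers in the tenocyte-like cluster were at 16754, 22436, 8459 and 10971 CPM in that order. The part of these marker differences in the result was not tested. The mix of these clusters differed between libraries, with osteochondral progenitor-like cells 1270 of 2996 mesenchymal cells in control_7d and 1013 of 4019 in RA_7d. For weighting, here and below, the mix was each cluster's share of the lineage's UMIs and not of its cells. With RA levels weighted by the control mix, the ratio was −0.28, and with control levels weighted by the RA mix it was −0.05.

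Cycling cells, counted as cells with UMIs from at least 3 of 10 cell cycle genes, made up 7.31% of mesenchymal cells in control_7d and 2.51% in RA_7d. The count takes no account of a cell's depth. These shares leave out an unnamed cluster (233 cells in control_7d and 95 in RA_7d) of which 99.6% and 100% were cycling and which carried committed mesenchymal progenitor markers (6432 and 4735 CPM). With it counted in, the members' log2 ratio was −0.34. In cells that were not cycling, the log2 ratio of the members at 7 dpf was −0.32 (15936 and 12769 CPM), and in cycling cells it was −0.25 (18665 and 15706 CPM). The lower level was therefore measured in both fractions.

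The lower level at 7 dpf was not limited to mesenchymal cells. In all 20 clusters with at least 20 cells in both libraries, the summed level was lower in RA_7d than in control_7d, with log2 ratios from −0.76 in osteoclast-like cells to −0.03 in neutrophil and granulocyte precursor-like cells, where the counting interval reached 0. Of these clusters 1 was unnamed and mostly doublets (78.3% of its cells, −0.33). At 4 dpf it was lower in 18 of 20 clusters (lowest −0.47, in the muscle cluster) and higher in 2, the lymphatic endothelial cell-like (0.15) and osteoclast-like (0.04) clusters. The range between the highest and lowest of the 4 complexes within a cluster had a median of 0.08 at 4 dpf and 0.07 at 7 dpf. Its maximum, 0.24 at 7 dpf, was in osteoclast-like cells, where complex III (−0.95) lay below complex IV (−0.71). Where the summed ratio was near 0, the complexes did not all share a sign. At 7 dpf they spanned −0.11 to 0.01 in dendritic cell-like, −0.13 to 0.03 in NK cell-like and −0.07 to 0.055 in neutrophil and granulocyte precursor-like cells. At 4 dpf they spanned −0.068 to 0.0038 in fibroblast-like cells.

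**Figure D3:**
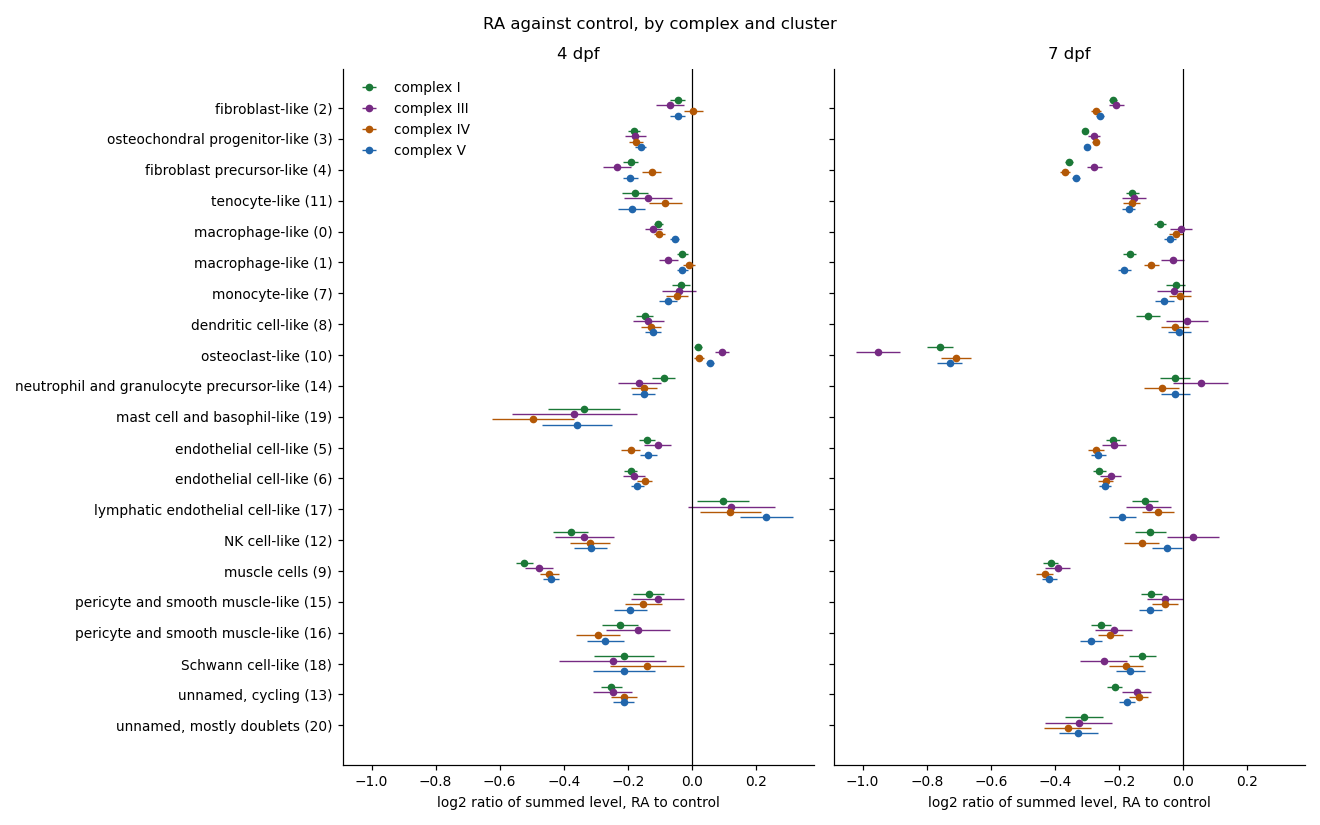
Log2 ratio of RA to control for the summed level of each complex (colour) in each cluster with at least 20 cells in both libraries, at 4 dpf (left) and 7 dpf (right), with bars for the exact 95% counting interval. At 7 dpf the 4 complexes sit together left of 0 in the mesenchymal and endothelial clusters and in muscle, near 0 in monocyte-like cells, and between −0.95 and −0.71 in osteoclast-like cells.

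Endothelial cells had a summed level of 17758 CPM in control_4d, 15739 in RA_4d, 17721 in control_7d and 14881 in RA_7d. Both RA libraries were below both control libraries, with log2 ratios of −0.17 at 4 dpf and −0.25 at 7 dpf. At least 1.2-fold lower were 10 of 74 members at 4 dpf (12.6% of all genes) and 41 of 74 at 7 dpf (17.4% of all genes). Atp5g1 again had the lowest ratio at 7 dpf (255 and 175 CPM, −0.54), while Ndufa4 (350 and 369 CPM, 0.08) and Uqcrh (577 and 595 CPM, 0.04) were as high in RA as in control and Cox7a2l was higher (335 and 393 CPM, 0.23). Cycling cells were 16.6% of endothelial cells in control_7d and 5.99% in RA_7d. The ratio at 7 dpf was −0.22 in cells that were not cycling and −0.13 in cycling cells (154 in control_7d and 75 in RA_7d). At least 1.2-fold lower were 29 of 74 members in cells that were not cycling (14.9% of all genes). In cycling cells they were 11 of 73 (16.8% of all genes).

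Over the whole lineage, myeloid cells differed more at 7 dpf than at 4 dpf. Their summed level was 19247 CPM in control_4d, 19396 in RA_4d, 19252 in control_7d and 15559 in RA_7d, so RA_7d alone stood below the rest (log2 ratios 0.01 at 4 dpf and −0.31 at 7 dpf). The sign of the 4 dpf value depended on the processing, with values from −0.11 to 0.04. At least 1.2-fold lower was 1 of 77 members at 4 dpf (11.3% of all genes) and 50 of 77 at 7 dpf (13.8% of all genes). Uqcr11 (367 and 247 CPM at 7 dpf, −0.57), Ndufab1 (148 and 94.2 CPM, −0.64) and Atp5g1 (325 and 220 CPM, −0.56) were among the lower ones, and Uqcrh (516 and 494 CPM, −0.06) and Ndufa6 (204 and 201 CPM, −0.02) lay near 0.

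Within most myeloid clusters the RA library was the lower one at both times. At 4 dpf the log2 ratio was −0.09 and −0.03 in the 2 macrophage-like clusters, −0.05 in monocyte-like, −0.13 in dendritic cell-like, −0.13 in neutrophil and granulocyte precursor-like and −0.39 in mast cell and basophil-like cells, and 0.04 in osteoclast-like cells. With RA levels weighted by the control mix of clusters, the lineage's 4 dpf ratio was −0.04. At 7 dpf the log2 ratio was −0.04 and −0.14 in the 2 macrophage-like clusters, −0.03 in monocyte-like cells and −0.04 in dendritic cell-like cells, and so nearer to 0 than at 4 dpf in the first macrophage-like, the monocyte-like and the dendritic cell-like clusters. This did not hold for every cluster at the finer clustering. Its largest macrophage-like cluster was at 15623 CPM in control_4d, 15392 in RA_4d, 15496 in control_7d and 13660 in RA_7d. Another was at 18274, 16789, 17307 and 17279 CPM in that order, and the finer monocyte-like cluster at 17424, 17167, 19853 and 18982 CPM. In the main clustering, osteoclast-like cells, in contrast, went from 37569 CPM (191 cells) to 22199 CPM (37 cells), −0.76, with 72 of 74 members at least 1.2-fold lower against 30.5% of all genes. The finer clustering held, in different proportions, an osteoclast-like cluster (103 cells in control_7d at 45762 CPM and 12 in RA_7d at 27612 CPM) and an unnamed, cycling one (88 cells at 25223 CPM and 25 at 19473 CPM, −0.37). Markers of the unnamed one did not tell osteoclasts from macrophages. Without the osteoclast-like cluster of the main clustering, the myeloid ratio at 7 dpf was −0.09, so the larger part of the myeloid value came with that cluster. Without it 3 members were at least 1.2-fold lower, but the share of all genes was not counted there. With control levels weighted by the RA mix of clusters, the myeloid ratio was −0.19, and with RA levels weighted by the control mix it was −0.22. The 37 cells of RA_7d also had less of the summed osteoclast markers (2499 CPM, against 9192 in control_7d) and more of the macrophage markers (3930 against 2607 CPM). The part of these marker differences in the result was not tested.

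Lymphoid cells, a single NK cell-like cluster that also held T cell markers, had the larger difference at 4 dpf. Their summed level was 16467 CPM in control_4d, 13034 in RA_4d, 14866 in control_7d and 14110 in RA_7d, so that control_4d was highest and RA_4d lowest (log2 ratios −0.34 and −0.08). At least 1.2-fold lower were 47 of 73 members at 4 dpf (24.9% of all genes) and 8 of 73 at 7 dpf (18.1% of all genes). These libraries held only 90 to 277 lymphoid cells.

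With the main filter on cells, the muscle cluster had the largest difference of the lineages at both times. Its summed level was 30038 CPM in control_4d, 21689 in RA_4d, 26889 in control_7d and 20153 in RA_7d, with both RA libraries below both control libraries (−0.47 and −0.42). With a looser filter on cells the 4 dpf ratio was −0.18. At least 1.2-fold lower were 68 of 75 members at 4 dpf (24.3% of all genes) and 62 of 76 at 7 dpf (28.2% of all genes). Ndufa12 was at 227 CPM in control_4d, 107 in RA_4d, 213 in control_7d and 115 in RA_7d, and Uqcrq at 449, 254, 438 and 278 CPM in the same order, whereas Ndufa6 (234, 262, 232 and 233 CPM) and Cox7a2l (351, 360, 354 and 373 CPM) differed little.

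Muscle cells also differed in depth and state between libraries. Median UMIs per cell were 24638 in control_4d, 18232 in RA_4d, 14491 in control_7d and 9772 in RA_7d, and summed differentiating markers were at 1252, 628, 1294 and 1552 CPM in that order. The part of these differences in the result was not tested. Cycling cells were 39.2% in control_4d, 21.6% in RA_4d, 23.9% in control_7d and 5.73% in RA_7d, and in cells that were not cycling the ratios were −0.32 at 4 dpf and −0.35 at 7 dpf. These shares were not corrected for depth. The summed cell cycle genes were at 522 CPM in control_4d, 410 in RA_4d, 744 in control_7d and 305 in RA_7d. By CPM control_7d was thus above control_4d, unlike by share of cells. Among cells with more stem than differentiating marker UMIs, the ratio at 7 dpf was −0.54 (271 control and 279 RA cells). Among the 39 control and 35 RA cells with at least as many differentiating marker UMIs, it was −0.06 (31591 and 30207 CPM). Depth and cycling also differed within these groups. In the stem group, median UMIs were 13530 in control_7d and 8930 in RA_7d, and cycling cells 25.5% and 6.09%. In the other group, median UMIs were 17156 and 19456, and cycling cells 12.8% and 2.86%. The part of these differences in the 2 ratios was not tested.

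Mural cells (pericytes and smooth muscle) went from 22950 to 20308 CPM at 4 dpf and from 20938 to 18973 CPM at 7 dpf (−0.18 and −0.14), and Schwann cells from 17389 to 15147 and from 19422 to 17346 CPM (−0.20 and −0.16). In both lineages the RA library was the lower one at each time, with 20 Schwann cells in RA_4d as the smallest group. Atp5g1 was the lowest member in mural cells at 7 dpf (285 and 208 CPM, −0.45).

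Most of the members were expressed in every cell type, but a few isoform genes were not. Ndufa4l2, a paralogue of Ndufa4 known to be induced by hypoxia, was at 626 and 382 CPM in the 2 pericyte and smooth muscle-like clusters, and in the first of them it lay between 566 and 718 CPM in the 4 libraries, above Ndufa4 (190 to 303 CPM). It was at 122 CPM in tenocyte-like, 71.7 CPM in osteochondral progenitor-like, 67.9 CPM in fibroblast precursor-like and 51.8 CPM in fibroblast-like cells. In the myeloid cells of control_4d, RA_4d, control_7d and RA_7d it was at only 0.55, 0.44, 1.2 and 0.89 CPM. In tenocyte-like cells, control_4d (244 CPM) was higher than the other 3 libraries (65.5 to 104 CPM). In muscle it had 68 UMIs (13.7 CPM) in control_4d and 0 in RA_4d, where a count of 0 allows up to 1.29 CPM (3 UMIs). At 7 dpf it had 8 UMIs (1.56 CPM) in control_7d and 3 UMIs (0.83 CPM) in RA_7d, so control_4d alone stood apart.

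Cox6a2, the striated muscle isoform of a complex IV subunit, was highest not in the muscle cluster (5.0 CPM) but in mast cell and basophil-like cells (148 CPM, 130 UMIs in 84 cells), a cluster that also held B cell markers (1719 CPM in control_4d, against 3462 CPM of its own markers, and 580 against 6664 CPM in RA_4d), with 13.7 CPM in neutrophil and granulocyte precursor-like cells. Cox7a1, also known as a muscle isoform, was highest in osteoclast-like cells at 22.0 CPM, against 718 CPM for Cox7a2 there. Cox8b had 4.3 CPM in muscle and 4.1 CPM in tenocyte-like cells and under 0.9 CPM in the other named clusters. Cox6a1, the ubiquitous partner of Cox6a2, was at 124 CPM in mast cell and basophil-like cells (counting interval 102 to 149), which overlapped with Cox6a2 (123 to 175).

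**Figure D4:**
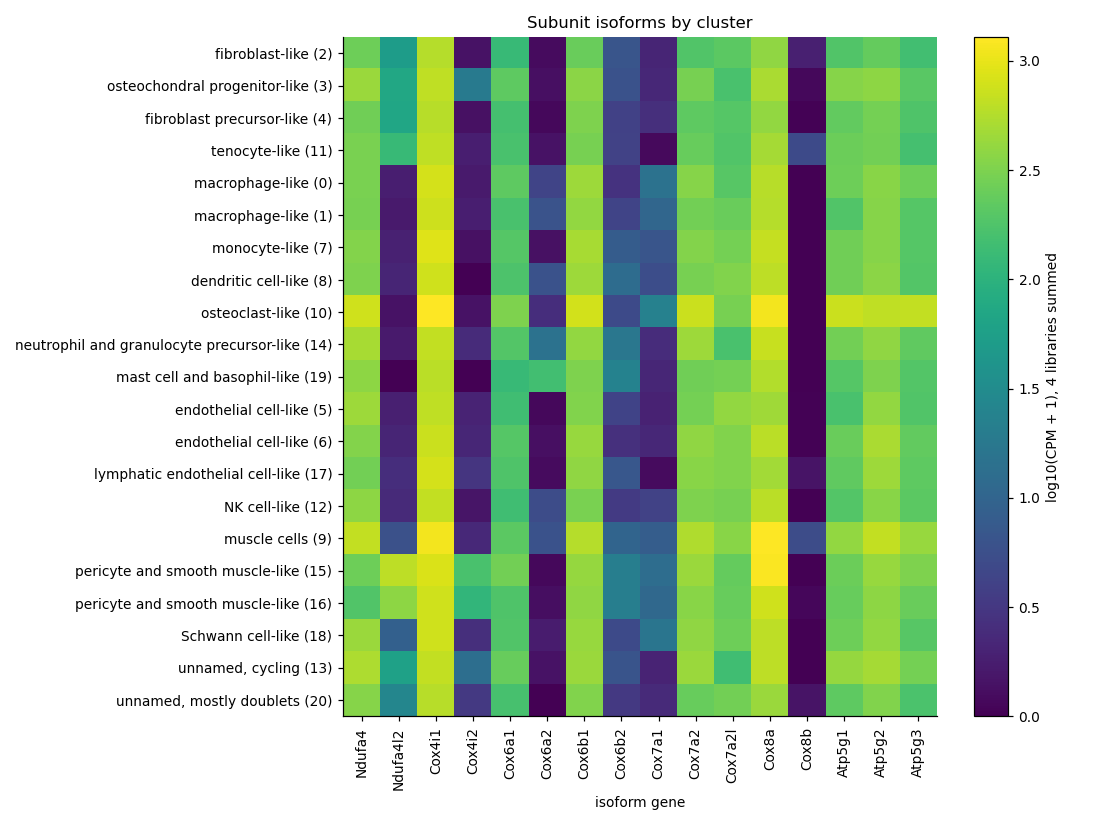
Level of subunit isoform genes by cluster, as the colour of log10(CPM + 1) over the 4 libraries summed. Ndufa4l2 stands out in the pericyte and smooth muscle-like clusters at 626 and 382 CPM, Cox6a2 in mast cell and basophil-like cells at 148 CPM, and most other genes are bright in all clusters.

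Genes of the pathway outside the set were examined from lists. Cox4i1 and Cox4i2 encode subunit 4 of complex IV and are not taken by the symbol rule. In mesenchymal cells Cox4i1 was at 642 CPM in control_7d and 595 in RA_7d (−0.11). Cox4i2, the isoform known from lung and low oxygen, was at 1.0 CPM in control_4d, 1.2 in RA_4d, 14.4 in control_7d and 3.7 in RA_7d, so it was above 2 CPM only at 7 dpf. Most of these UMIs were in osteochondral progenitor-like cells (30.6 CPM in control_7d and 12.1 CPM in RA_7d), and the highest levels of any cluster were in the pericyte and smooth muscle-like cells (165 and 109 CPM).

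Cycs, the cytochrome c that carries electrons between complexes III and IV, was at 82.1 CPM in control_4d, 72.1 in RA_4d, 122 in control_7d and 68.2 in RA_7d of the mesenchymal cells, a log2 ratio of −0.83 at 7 dpf, lower than that of any member. The 4 complex II subunits (Sdha to Sdhd) had a median of −0.21, from −0.37 (Sdhb) to −0.03 (Sdha). The 13 subunits encoded in mitochondrial DNA had a median of −0.22 and lay between −0.44 for mt-Nd3 and 0.17 for mt-Nd6. At 4 dpf some of these were higher in RA, with mt-Co1 at 3474 CPM in control and 4128 in RA. Slc25a5, which exchanges ADP and ATP across the inner membrane, was at 215 and 138 CPM at 7 dpf (−0.63).

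Regulators of mitochondrial biogenesis did not share the lower level. The 13 listed had a median log2 ratio of −0.06 in mesenchymal cells at 7 dpf, with Nrf1 at 0.08, Gabpa at 0.03, Yy1 at 0.08, Tfam at −0.06 and Esrra at −0.13. Ppargc1a, the coactivator PGC-1α, was higher, at 4.7 CPM in control_4d, 5.1 in RA_4d, 3.8 in control_7d and 11.1 in RA_7d (1.32). The median mesenchymal ratio of members at 7 dpf was −0.34 with the NRF1 motif in the promoter (18 genes) and −0.34 without (48). It was −0.38 with the ETS motif (15) and −0.33 without (51). With any of the 4 motifs it was −0.34, and with none −0.34 (33 genes each). These ratios come from the contrast that the set was proposed from, and control by these regulators was not tested.

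Other lists were measured in the same cells for scale. In mesenchymal cells at 7 dpf, 78 mitochondrial ribosomal protein genes had a median of −0.34, with 51 at least 1.2-fold lower, and 14 proteasome core genes a median of −0.43, with 13 lower by that much, beside 18.0% of all genes. The 36 assembly factors of the respiratory complexes had a median of −0.23 and 16 genes of the tricarboxylic acid cycle −0.11. Cytosolic ribosomal proteins, at −0.11, were nearer to the median over all genes. The level of the 80 genes was thus lower by about as much as that of the mitochondrial ribosome, and by less than that of the proteasome core. Glycolysis and cell cycle genes, given under other observations, had lower medians than any list here. No list was tested against another.

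**Figure D5:**
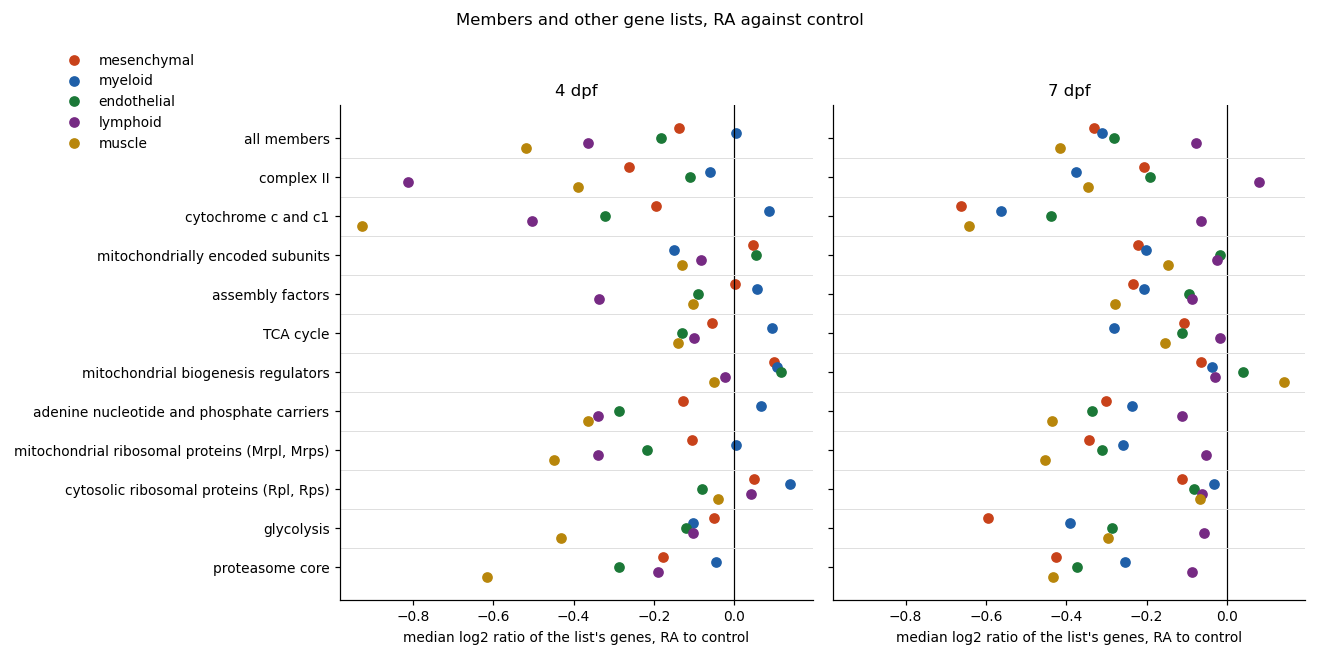
Median log2 ratio of RA to control of the genes of each list, for 5 lineages (colour), at 4 dpf (left) and 7 dpf (right). At 7 dpf the members lie at −0.33 in mesenchymal, −0.31 in myeloid, −0.28 in endothelial, −0.42 in muscle and −0.08 in lymphoid cells.

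All of these levels are shares of a cell type's UMIs, so a lower level says that these transcripts took a smaller part of the captured mRNA, and not that a cell held fewer molecules. Several members, among them Cox7c, Uqcrh, Atp5k, Atp5l and Ndufa11, have near-identical copies or pseudogenes that could take or lend reads, so their levels are less certain than the others.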

How the data were processed

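Cells of 4 libraries were profiled by droplet single cell RNA-seq (10x Genomics, about 10000 cells loaded). The authors aligned reads and made the deposited count matrices, whole UMI counts per gene and barcode, with Cell Ranger 7.0.1 on mm10. Labels gave the groups.

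Cells with 4000 to 50000 UMIs, 2000 to 7000 genes and at most 8% mitochondrial UMIs were kept, the limits of the study's methods. Kept UMIs totalled 83405494 to 156567619 per library. Libraries were joined in Seurat 5.3.0 (canonical correlation anchors, 2000 variable genes without the members, mitochondrial or ribosomal genes) and clustered at resolution 0.5. Clusters were named from marker lists. Doublets were scored with Scrublet at a common threshold of 0.219, the median of the 4 automatic ones, set after the automatic threshold for RA_4d marked only 1 kept cell; they were kept unless stated.

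UMIs were summed per lineage and library and given as CPM. Log2 ratios of single genes used 1 CPM as pseudocount and needed 50 UMIs over both libraries. Counts of members at least 1.2-fold lower say so, and "lower" alone means a negative log2 ratio of RA to control. With 1 library per condition no test was run. Intervals are exact Poisson or conditional binomial intervals at 95%, for counting error only. They were tried only on counts simulated with Poisson error, which says nothing of variation between cells or mice. Named genes were, per complex, the one with the most UMIs, the 2 lowest and the highest ratio in mesenchymal cells at 7 dpf among genes of at least 50 CPM, plus the genes on either side of the 1.2-fold limit. Isoforms, the parts of complexes I and V and the genes of other lists were named beside them. Members and lists were chosen with earlier results of these data known. Numbers of fractures per pool differ between the sources, so none is given.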

Additional observations from a re-analysis of the deposited data

Results flagged for a closer look

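Some groups moved in opposite directions under the same contrast. With 1 library per condition, none of these differences was tested, and all values are log2 ratios of the members' summed level. From 4 to 7 dpf, mesenchymal cells were at 0.14 in control and −0.069 in RA, and fibroblast precursor-like cells at 0.085 in control and −0.076 in RA. Lymphoid cells, a single NK cell-like cluster, had the reverse order, −0.15 in control and 0.11 in RA.

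RA against control had opposite signs at the 2 times in 3 groups. Myeloid cells were at 0.011 at 4 dpf and −0.31 at 7 dpf, osteoclast-like cells at 0.042 and −0.76, and lymphatic endothelial cell-like cells at 0.15 and −0.13. Osteoclast-like cells were at 0.30 from 4 to 7 dpf in control and at −0.51 in RA, where RA_7d held 37 of them.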

How the results depend on the processing

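All values here are log2 ratios of RA to control. No paired analysis was possible because each condition had 1 library and no replicate number. The direction was the same under each alternative run in mesenchymal, endothelial, lymphoid and muscle cells, and in myeloid cells at 7 dpf. Mesenchymal values at 4 and 7 dpf were −0.18 and −0.29 with TMM scaling, −0.11 and −0.37 on a total without members, mitochondrial, ribosomal and haemoglobin genes, −0.14 and −0.34 with cells weighted equally, −0.14 and −0.26 as the mean over clusters, −0.14 and −0.32 without cycling cells, and −0.14 and −0.34 without integration. The looser cell filter (at least 1000 UMIs and 500 genes, at most 15% mitochondrial) gave −0.32 at 7 dpf. Added after the data were seen, resolution 1 gave −0.16 and −0.32, and counting the cycling cluster in gave −0.34 at 7 dpf.

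Myeloid values at 4 dpf were of the other sign with TMM (−0.018), equal weights (−0.022), the mean over clusters (−0.11) and without the osteoclast-like cluster (−0.046), and 0.037 on the reduced total, 0.0045 without cycling cells, 0.0065 with the looser filter and 0.016 at resolution 1. Their median over members, 0.0042, was −0.025 with TMM, −0.029 with equal weights, −0.13 as the mean over clusters, −0.012 without cycling cells and −0.044 without the osteoclast-like cluster. At 7 dpf the sum was −0.35 with TMM, −0.32 on the reduced total, −0.19 with equal weights, −0.17 as the mean over clusters, −0.27 without cycling cells, −0.36 with the looser filter, −0.32 at resolution 1 and −0.091 without the osteoclast-like cluster, a choice made after the data were seen.

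Endothelial values at 4 dpf were −0.22 with TMM, −0.19 on the reduced total, −0.056 as the mean over clusters, −0.14 without cycling cells and −0.19 without doublets. At 7 dpf they were −0.28 on the reduced total, −0.24 with equal weights, −0.21 as the mean over clusters and −0.22 without cycling cells. Lymphoid values at 4 dpf were −0.28 with TMM, −0.28 with equal weights, −0.42 without cycling cells, −0.29 without integration and −0.22 with the looser filter. At 7 dpf they were −0.046 with TMM, −0.10 on the reduced total, −0.14 with equal weights and −0.15 without cycling cells. Muscle at 4 dpf went from −0.47 to −0.58 with TMM and −0.18 with the looser filter.

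Counts of members at least 1.2-fold lower moved by over 1.5 times as follows. At 4 dpf, mesenchymal cells had 9, but 18 with TMM, 14 at resolution 1 and 3 with 10 CPM as pseudocount, and endothelial cells 10, but 23 with TMM, 16 on the reduced total, 6 without cycling cells and 2 as the mean over clusters. Myeloid cells at 4 dpf had 1, but 7 as the mean over clusters and 2 without cycling cells, and at 7 dpf 50, but 24 with equal weights, 17 as the mean over clusters and 3 without the osteoclast-like cluster. Lymphoid cells at 4 dpf had 47, but 31 with the looser filter, and at 7 dpf 8, but 5 with TMM or 10 CPM, 15 with equal weights and 20 without cycling cells. Muscle at 4 dpf had 68, but 19 with the looser filter. Shares of all genes are not given for these alternatives, so nothing is read from these counts. The cause of these shifts was not tested. Genes with few UMIs are limited by depth.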

Other observations

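Glycolysis and proteasome genes outside the respiratory chain were lower in the RA library of the same cells at 7 dpf. In mesenchymal cells 18 glycolysis genes with at least 50 UMIs had a median log2 ratio of −0.59, and 12 of them were at least 1.2-fold lower, beside 18.0% of all genes. The same list had a median of −0.39 in myeloid, −0.29 in endothelial, −0.30 in muscle and −0.06 in lymphoid cells. Proteasome core genes had medians of −0.43, −0.25, −0.37, −0.43 and −0.09 in that order.

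Mitochondrial ribosomal proteins had a median of −0.26 in myeloid, −0.31 in endothelial, −0.45 in muscle and −0.05 in lymphoid cells. Subunits encoded in mitochondrial DNA were at −0.20 in myeloid cells, but at −0.02 in endothelial cells, where the nuclear members were at −0.28. Adenine nucleotide and phosphate carriers were at −0.24 in myeloid, −0.34 in endothelial and −0.44 in muscle cells. Cell cycle genes were lower in mesenchymal (−0.67), myeloid (−0.61), endothelial (−1.12) and muscle (−1.25) cells and higher in lymphoid cells (0.73). The lymphoid value rests on 152 control and 277 RA cells, with the summed genes at 84.8 and 125.5 CPM. Cycling cells were 3.95% and 3.97% of them.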
